A study of Mus musculus with 18 samples.

Results

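The genes described here handle lipids outside and inside cells, and their transcripts were followed in mouse kidney through the 14 days after folic acid. They are 10 genes picked by symbol, Pltp, Apoe, Lpl, Abca1, Abcg1, Lcat, Apoc1, Nr1h3, Plin2 and Cd36. Each was matched to 1 Ensembl identifier among the 37991 genes of the deposited counts, and all 10 were among the 16824 genes with enough reads to be tested. Whole kidney came from male Balb/c mice of 25 to 29 g, as the labels give it, in 6 groups of 3 libraries. The untreated group carried no treatment. The other 5 groups received a single intraperitoneal dose of 250 mg/kg folic acid in 0.3 M sodium bicarbonate and were sampled on days 1, 2, 3, 7 or 14. Folic acid at such a dose injures the kidney tubule, and scarring follows over the next weeks. No group given only the bicarbonate was analysed here, and the effects of folic acid and of its vehicle cannot be told apart. The labels number 3 replicates per group without naming animals, so the tests measure the spread between these libraries.

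Lipoproteins carry triglyceride and cholesterol between tissues, and proteins on their surface decide where each particle delivers its load. Lipoprotein lipase releases fatty acids from the particles, CD36 takes fatty acids into cells, and perilipin 2 coats the droplets in which cells store them. Cholesterol leaves cells through the transporters ABCA1 and ABCG1 to particles that apolipoprotein E, phospholipid transfer protein and lecithin-cholesterol acyltransferase help to build and remodel. In macrophages the nuclear receptor LXR alpha, the product of Nr1h3, is known to switch on many of these genes when sterols accumulate. Proximal tubule cells live largely on fatty acids, and kidney macrophages express the efflux genes.

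The libraries held 8.68 to 54.6 times 1000000 reads assigned to genes, of which 59.0 to 75.6% came from genes of the mitochondrial genome. All 12 proximal tubule markers had reads in every library, with a summed level of 9765 to 10663 CPM (counts per 1000000 reads assigned to genes) in untreated kidney, as the tissue label says. The summed level of 12 tubular injury markers was 143 to 189 CPM in untreated kidney and at least 751 CPM in every treated library. A pair of libraries stood apart. Day 2 replicate 2 had the fewest reads. Day 14 replicate 3 had an injury marker sum of 2921 CPM against 751 and 986 CPM in the other 2 libraries of its group, and a proximal tubule sum of 2625 CPM against 5800 and 7147 CPM. Results that rest on either library are given with and without it.

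Against untreated kidney, the members fell into separate courses over the 5 times. Plin2, the droplet coat gene, was 52.7-fold higher at day 1 and its mean was lower at each later time. Abca1 was higher at every time, between 2.60-fold and 4.81-fold. Lpl was 4.77-fold to 6.57-fold lower from day 1 to day 7, and Cd36 was lower at day 7. Apoe and Abcg1 had their highest means at day 7, as had Pltp, which was nearly absent at days 1 and 2. For each of these genes day 7 overlapped day 14, and Pltp was not called at day 7. In whole tissue, fewer cells of a type and less RNA per cell cannot be told apart. Levels here are CPM scaled by the TMM factors of edgeR. A call means an adjusted p under 0.05 in edgeR's quasi-likelihood test, after Benjamini-Hochberg adjustment over all 16824 genes.

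**Figure D1:**
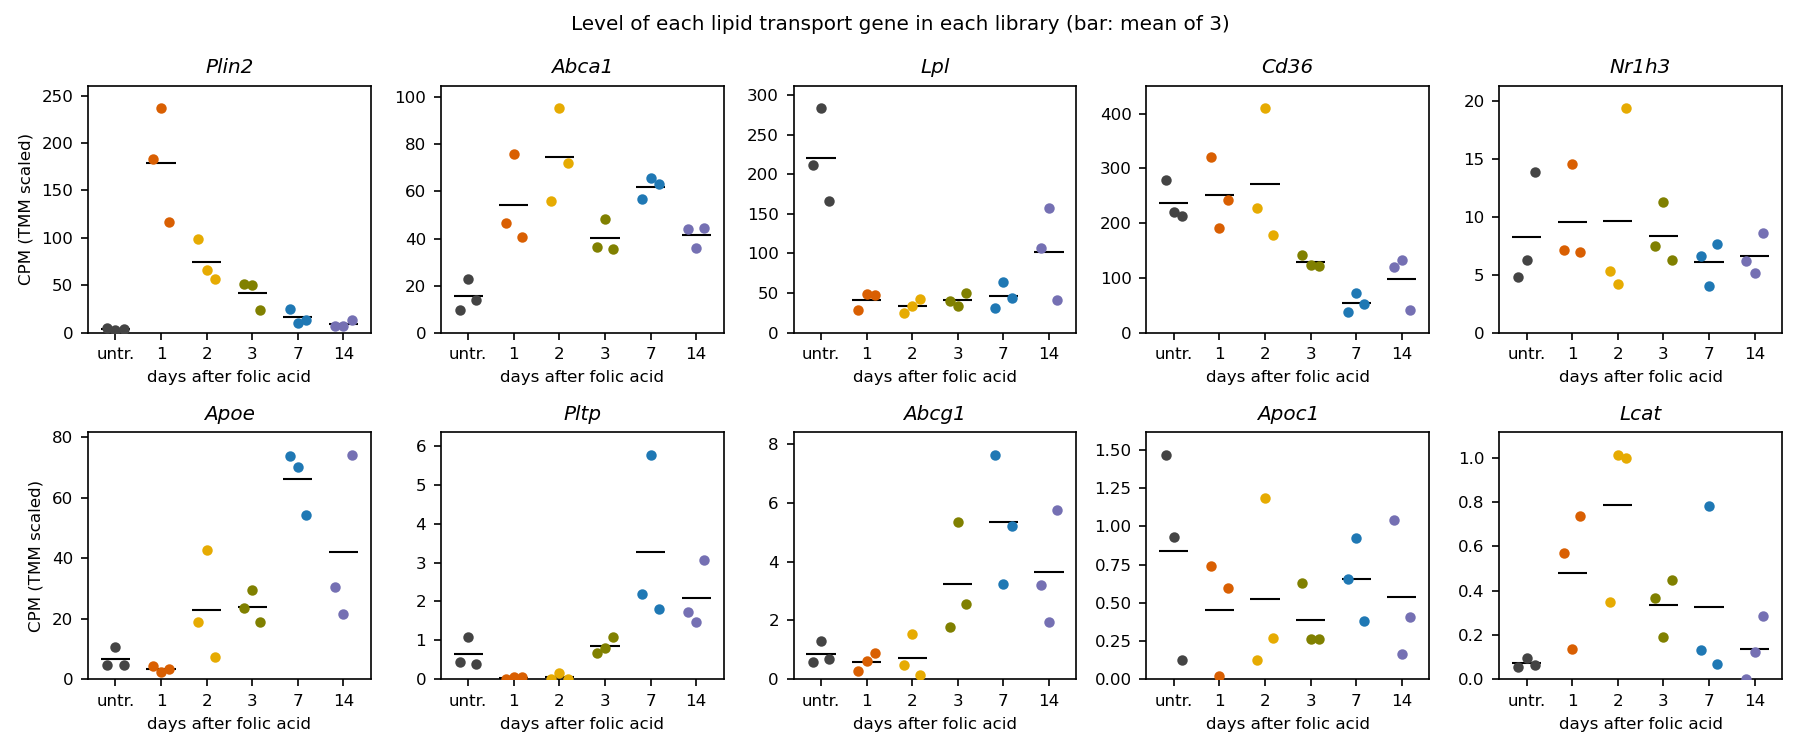
Level of each of the 10 genes in CPM (TMM scaled, linear axes from 0) in each of the 18 libraries, with untreated kidney at the left and the days after folic acid set at equal steps. Points are libraries in the order of replicates 1 to 3 and bars are means of 3. Plin2 is highest at day 1, Lpl is low from day 1 to day 7, and Apoe, Abcg1 and Pltp have their highest means at day 7.

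At day 1, 4 of the 10 members were called, against 10.7% of all genes tested. Plin2 and Abca1 were higher, where 5.09% of all genes were, and Lpl and Pltp lower, where 5.56% were. At day 2, 5 were called against 13.2% of all genes, Plin2, Abca1 and Apoe higher (7.19% of all genes) and Lpl and Pltp lower (5.98%). At day 3, 4 were called against 7.61%, with Plin2, Abca1 and Apoe higher (4.18%) and Lpl lower (3.43%). At day 7, 6 were called against 7.72%, with Plin2, Abca1, Apoe and Abcg1 higher (3.87%) and Lpl and Cd36 lower (3.85%). At day 14, 2 were called against 1.55%, Apoe and Abca1 higher (1.24%) and none lower (0.309%). The median log2 fold change of the 10 members was -0.24, 0.21, 0.88, 2.04 and 1.14 at days 1, 2, 3, 7 and 14, and over all genes it was 0.05, 0.03, 0.07, 0.06 and 0.04. Levels in the treated and untreated libraries did not overlap for 6, 5, 7, 7 and 7 members at these days, against 31.1%, 28%, 28.4%, 28.5% and 21.9% of all genes. A test for any difference across the 6 groups called 7 members against 19.7% of all genes. Lcat, Apoc1 and Nr1h3 were the members it did not call. No member was called at day 14 without day 14 replicate 3, untreated replicate 1 or untreated replicate 3.

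**Figure D2:**
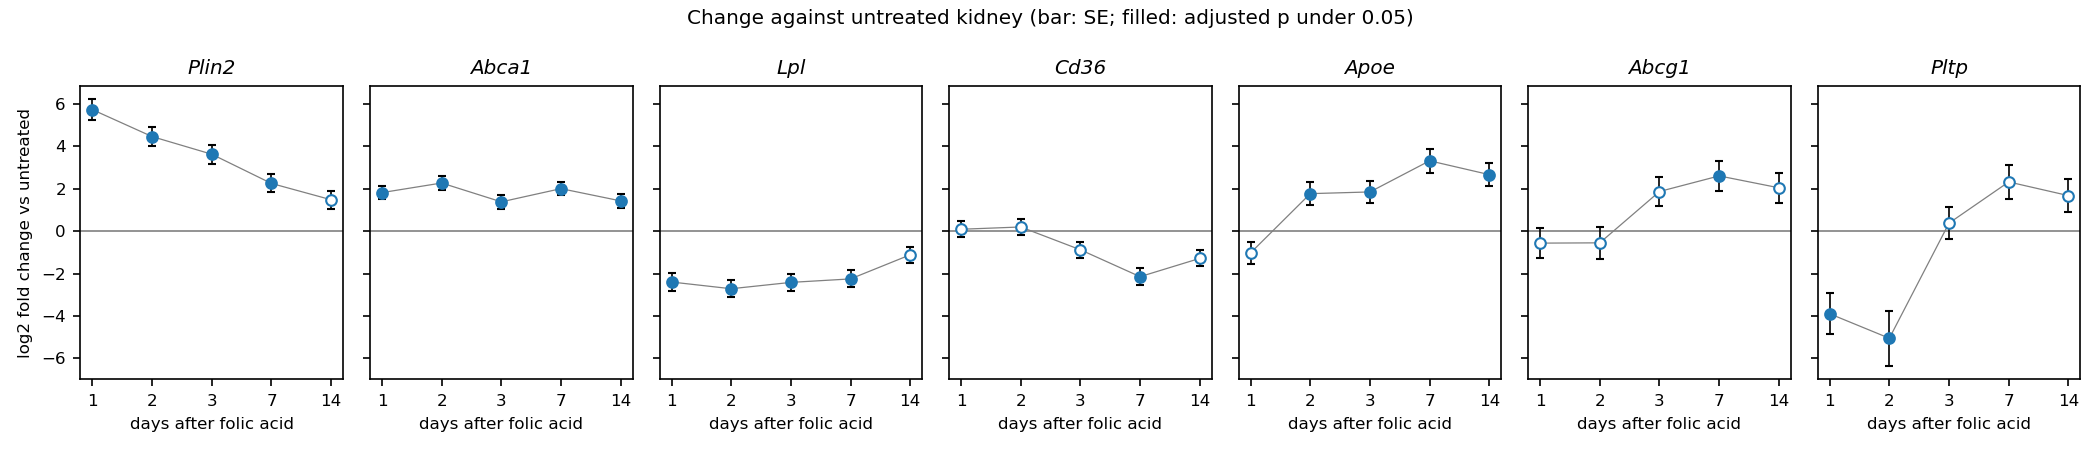
Fitted log2 fold change against untreated kidney for the 7 members that differed across the 6 groups, with standard errors, by day after folic acid at equal steps. Filled points have an adjusted p under 0.05. Plin2 falls from 5.72 at day 1 to 1.48 at day 14, while Apoe and Pltp go from below 0 at day 1 to above 0 at day 7.

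Among the genes for uptake and storage, Plin2 (ENSMUSG00000028494) changed most. Untreated kidney had 4.40, 2.28 and 3.57 CPM. At day 1 the libraries had 183, 237 and 117 CPM, and at day 2 they had 99.2, 66.3 and 57.0 CPM. At day 3 the levels were 51.2, 50.4 and 23.5 CPM. The 9 libraries of these times lay above every untreated library, and days 1, 2 and 3 did not overlap one another. At day 7 the levels were 24.6, 10.4 and 13.1 CPM and at day 14 they were 7.33, 7.22 and 13.7 CPM, still above every untreated library. The log2 fold change was 5.72 ± 0.49 (SE) at day 1 with an adjusted p of 6.38e-07 (edgeR). It was 4.45 ± 0.46, 3.62 ± 0.44 and 2.24 ± 0.42 at days 2, 3 and 7, with adjusted p values of 6.59e-06, 8.74e-05 and 0.00303 (edgeR). At day 14 it was 1.48 ± 0.42 with an adjusted p of 0.0806 (edgeR), which did not pass. Day 14 was called in 3 of 9 other settings and in 0 of 6 fits with a library left out. The adjusted p was 0.0365 with library totals and 0.0332 without a low-count filter (edgeR), and 0.025 with DESeq2. The steps from day 1 to day 2 and from day 3 to day 7 had log2 fold changes of -1.27 ± 0.40 and -1.38 ± 0.40, with adjusted p values of 0.167 and 0.252 (edgeR).

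Lpl (ENSMUSG00000015568) encodes the lipase that hydrolyses triglyceride in lipoproteins at the vessel wall. Untreated kidney had 212, 283 and 166 CPM. The levels were 29.1, 48.6 and 47.6 CPM at day 1 and 25.2, 33.3 and 42.2 CPM at day 2. They were 40.0, 34.2 and 49.6 CPM at day 3 and 31.1, 64.3 and 43.4 CPM at day 7. These 12 libraries all lay below the lowest untreated library, and the 4 times overlapped one another. The log2 fold change was -2.40 ± 0.40, -2.72 ± 0.41, -2.42 ± 0.40 and -2.25 ± 0.40 (SE) at days 1, 2, 3 and 7, and the adjusted p values were 0.000690, 0.000237, 0.00115 and 0.00203 (edgeR). At day 14 replicates 1 and 2 had 106 and 157 CPM and replicate 3 had 41.5 CPM, a mean of 102 ± 58.0 CPM (SD, n = 3). Day 14 did not overlap untreated kidney, but the log2 fold change of -1.12 ± 0.39 had an adjusted p of 0.153 (edgeR), and it was -0.75 with an adjusted p of 0.471 without replicate 3.

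Lpl is expressed in kidney and strongly in fat, which can remain attached to a dissected kidney. The summed level of 12 adipocyte markers was 16.5 to 34.3 CPM in untreated kidney, 5.64 to 35.8 CPM at day 1 and 6.38 to 22.5 CPM at day 7. None of the 10 adipocyte markers that could be tested was called at any time, though their median log2 fold change was -0.72 at day 1 and -2.62 at day 7. Endothelial markers, 10 genes, summed to 101 to 187 CPM in untreated kidney, to 57.1 to 67.5 CPM at day 1, to 23.3 to 37.9 CPM at day 2 and to 63.8 to 101 CPM at day 7. Of them 4, 6, 6, 1 and 0 were called lower at days 1, 2, 3, 7 and 14 and none higher. Proximal tubule markers were called lower for 11, 11, 10, 11 and 2 of 12 genes at these days. The part of these cell types in the levels of Lpl was not tested.

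Cd36 (ENSMUSG00000002944), a receptor that takes up long-chain fatty acids and oxidised lipoproteins, was called lower at day 7 and at no other time. Untreated kidney had 279, 219.5 and 212 CPM. At day 1 the levels were 321, 192 and 242 CPM and at day 2 they were 227, 409 and 178 CPM, overlapping untreated kidney, with 409 CPM in day 2 replicate 2. At day 3 they were 141, 123 and 122 CPM and at day 7 they were 36.8, 71.7 and 52.0 CPM. Both times lay wholly below untreated kidney, and day 7 wholly below day 3. Its log2 fold change was -0.88 ± 0.37 (SE) at day 3 with an adjusted p of 0.165 and -2.15 ± 0.39 at day 7 with an adjusted p of 0.00225 (edgeR). Day 14 had 119, 132 and 40.4 CPM, the lowest of them in replicate 3. Its log2 fold change was -1.29 ± 0.38 with an adjusted p of 0.0927 (edgeR), and -0.92 with an adjusted p of 0.294 without replicate 3. Day 14 was called lower in 2 of 9 other settings and in 0 of 6 fits with a library left out. The adjusted p was 0.0333 without a low-count filter (edgeR) and 0.0358 with DESeq2.

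Abca1 (ENSMUSG00000015243) encodes the transporter that moves cholesterol and phospholipid out of the cell to lipid-poor apolipoproteins. It rose by day 1 and was called higher at all 5 times. Untreated kidney had 9.68, 22.7 and 13.9 CPM, with replicate 2 the highest. The levels were 46.5, 75.8 and 40.6 CPM at day 1, 56.1, 95.3 and 72.0 CPM at day 2, and 36.4, 48.5 and 35.6 CPM at day 3. They were 56.6, 65.8 and 63.0 CPM at day 7 and 44.1, 35.8 and 44.4 CPM at day 14. All 15 treated libraries lay above the highest untreated library, and the treated times overlapped their neighbours in the order of their means. Log2 fold changes were 1.81 ± 0.32, 2.26 ± 0.32, 1.38 ± 0.31, 2.00 ± 0.32 and 1.42 ± 0.31 (SE) at days 1, 2, 3, 7 and 14. The adjusted p values were 0.000968, 0.000146, 0.0117, 0.000910 and 0.0264 (edgeR). The day 3 call was lost without untreated replicate 1, untreated replicate 3 or day 3 replicate 2. The day 14 call was lost without untreated replicate 1, untreated replicate 3, day 14 replicate 1 or day 14 replicate 3, with adjusted p values of 0.134, 0.101, 0.0621 and 0.0912 (edgeR). It was also lost in limma-voom (0.0529) and with only the 2 groups fitted (0.111).

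Abca1 is a textbook target of LXR, and Abca1 and Plin2 are the members that were already higher at day 1. Their 250 bases upstream of the RefSeq transcription start are shown for comparison, from build GRCm38.p6 and written in the direction of transcription. Abca1 lies on the minus strand at chr4:53159896-53160145 and Plin2 on the minus strand at chr4:86670060-86670309. Capitals mark the match to the LXR element known from the Abca1 promoter, GGTTAC and GGTCA set 4 bases apart, searched on both strands.
Abca1: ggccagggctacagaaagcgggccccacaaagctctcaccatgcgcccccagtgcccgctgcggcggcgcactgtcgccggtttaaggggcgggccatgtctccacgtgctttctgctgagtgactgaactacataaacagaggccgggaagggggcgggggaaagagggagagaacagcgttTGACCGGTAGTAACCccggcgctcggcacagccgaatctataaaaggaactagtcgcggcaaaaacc
Plin2: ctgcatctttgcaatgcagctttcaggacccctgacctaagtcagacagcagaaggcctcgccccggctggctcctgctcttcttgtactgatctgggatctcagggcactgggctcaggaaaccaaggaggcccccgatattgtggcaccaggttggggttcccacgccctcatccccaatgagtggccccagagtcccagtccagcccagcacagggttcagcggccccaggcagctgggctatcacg
The match in Abca1 reads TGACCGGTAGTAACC, the motif on the opposite strand, and spans 67 to 53 bases upstream of the start. The element was present in 0.0365% of the 32851 promoters searched. Its letters are those known from the Abca1 promoter, so the match in Abca1 was fixed in advance and is no finding about this gene. A pair of further motifs was searched in the same 250 bases on both strands, the DR4 repeat, a pair of AGGTCA with 4 bases between (0.0152% of promoters), and the DR1 repeat, a pair of AGGTCA with 1 base between (0.0335% of promoters). No stretch of the 7 members with promoter entries held either. The first element was found among them only in Abca1, from which its letters are known. Promoter entries were matched for 7 of the 10 members, all but Lpl, Abcg1 and Apoc1. A match is a description of letters and not a binding site, and no match covers only these windows.

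Abcg1 (ENSMUSG00000024030), whose product passes cholesterol to formed high-density particles, was called at day 7 and at no other time. Untreated kidney had 0.598, 1.31 and 0.689 CPM, from 11, 55 and 11 reads. Day 1 had 0.262, 0.607 and 0.875 CPM and day 2 had 0.469, 1.52 and 0.154 CPM, both overlapping untreated kidney. From day 3 on every library was above untreated kidney, with 1.76, 5.34 and 2.57 CPM at day 3, 7.63, 3.24 and 5.20 CPM at day 7 and 3.21, 1.95 and 5.75 CPM at day 14. The log2 fold change was 1.86 ± 0.70 (SE) at day 3, 2.60 ± 0.71 at day 7 and 2.04 ± 0.70 at day 14, and only day 7 passed, with an adjusted p of 0.0311 against 0.112 and 0.148 (edgeR). The day 7 call was lost without any 1 of the 3 untreated libraries or without day 7 replicate 1 or 3, with adjusted p values of 0.0539 to 0.121, while the log2 fold change stayed between 2.25 and 3.05 in those fits.

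Nr1h3 (ENSMUSG00000002108), the gene of LXR alpha itself, did not pass the test for any difference across the groups, with an adjusted p of 0.828 (edgeR). Its group means lay between 6.10 ± 1.86 CPM at day 7 and 9.63 ± 8.43 CPM at day 2 (SD, n = 3), with 8.29 ± 4.87 CPM in untreated kidney. The highest library was day 2 replicate 3 at 19.3 CPM and the lowest day 7 replicate 2 at 4.03 CPM. Neighbouring groups in the order of means all overlapped. This transcript level says nothing of the activity of the receptor, which depends on its ligands.

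Among the surface proteins of the 10, Apoe (ENSMUSG00000002985), the ligand that carries remnant particles to their receptors and takes up cholesterol released by macrophages, was called higher from day 2 on. Untreated kidney had 4.62, 10.5 and 4.70 CPM and day 1 had 4.29, 2.32 and 3.24 CPM. The day 1 libraries lay just below the untreated ones, a log2 fold change of -1.03 ± 0.53 (SE) with an adjusted p of 0.252 (edgeR). At day 2 the levels were 18.8, 42.6 and 7.38 CPM, and replicate 3 overlapped untreated kidney. They were 23.4, 29.4 and 19.0 CPM at day 3 and 73.9, 70.1 and 54.3 CPM at day 7, all above untreated kidney, and day 7 lay above every library of days 1, 2 and 3. Day 14 had 30.6, 21.4 and 74.2 CPM, and replicate 3 was the highest of all 18 libraries.

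For Apoe the log2 fold change was 1.76 ± 0.54, 1.84 ± 0.53, 3.31 ± 0.56 and 2.66 ± 0.55 (SE) at days 2, 3, 7 and 14, with adjusted p values of 0.0351, 0.0409, 0.00143 and 0.0169 (edgeR). Day 7, 9.92-fold above untreated kidney, was called in every alternative run. The day 2 call rested on replicate 2, the shallowest library: without it the log2 fold change was 0.96 with an adjusted p of 0.256 (edgeR). It was also lost without untreated replicate 1 or 3. The day 3 call was lost in 5 of the 6 fits that left out a library, all except that without untreated replicate 2. In limma-voom the day 2 log2 fold change was 1.22 with an adjusted p of 0.231 and that of day 3 was 1.80 with an adjusted p of 0.0590. With the replicate number as a block the adjusted p values of days 2 and 3 were 0.0510 and 0.0504 (edgeR). The day 2 adjusted p was 0.133 with only the 2 groups fitted. The day 14 call was lost without replicate 3, with a log2 fold change of 1.96 and an adjusted p of 0.107, and without untreated replicate 1 or 3 (adjusted p of 0.0994 and 0.0872), as with only the 2 groups fitted (0.0805). Against day 1, in comparisons added after the data were seen, Apoe was called higher at days 3, 7 and 14, where 0.85%, 2.66% and 4.63% of all genes were. The day 3 call against day 1 was lost without any 1 of the 3 day 1 libraries.

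Pltp (ENSMUSG00000017754), which moves phospholipid between lipoprotein particles and enlarges high-density particles, had few reads throughout. It is among the genes that the published study is understood to have followed further, so its course here is not independent evidence. Untreated kidney had 8, 46 and 6 reads, or 0.435, 1.09 and 0.376 CPM. Day 1 had 0, 2 and 3 reads and day 2 had 0, 1 and 0 reads, so no library of either time held more than 3 reads. The summed counts were 18.5-fold lower at day 1 (exact 95% interval 7.49 to 58.9) and 63.6-fold lower at day 2 (11.0 to 2553), intervals that cover counting error only. Of the 60 untreated reads 46 were in replicate 2, and without it the ratios were 9.58-fold at day 1 and 33.0-fold at day 2. Without day 2 replicate 1 the day 2 ratio was 25.1-fold. The fitted folds were 14.9-fold and 33.1-fold lower. The adjusted p values were 0.0105 at day 1 and 0.00906 at day 2 (edgeR). The day 1 call was lost without untreated replicate 2, with a log2 fold change of -3.22 and an adjusted p of 0.0614. The day 2 call was lost without day 2 replicate 1, with a log2 fold change of -3.91 and an adjusted p of 0.0629 (edgeR). Day 3 had 20, 21 and 41 reads, or 0.663, 0.796 and 1.08 CPM, within the range of untreated kidney.

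At day 7 Pltp had 67, 162 and 52 reads, or 2.20, 5.77 and 1.80 CPM, and at day 14 it had 40, 36 and 75 reads, or 1.73, 1.46 and 3.06 CPM. Both times lay above every untreated library. The log2 fold change was 2.32 ± 0.79 (SE) at day 7 with an adjusted p of 0.0801 and 1.67 ± 0.78 at day 14 with an adjusted p of 0.301 (edgeR), so neither passed. Day 7 was called in 2 of 9 other settings and in 0 of 6 fits with a library left out. The adjusted p was 0.0162 with DESeq2 and 0.0210 with library totals (edgeR). Replicate 2 held 162 of the 281 reads of day 7. The summed counts were 4.10-fold above untreated kidney with it and 2.56-fold above without it. Against the early times the test passed. Day 7 was 6.21 ± 1.01 and day 14 5.57 ± 0.99 above day 1 on the log2 scale, with adjusted p values of 0.00119 and 0.00156 (edgeR), where 2.66% and 4.63% of all genes were called higher. Against day 2, which held 1 read, both times were also called, where 2.77% and 4.68% of all genes were. These comparisons between treated times were added after the data were seen. Pltp shares 495 exon bases, 19.3% of its own, with Ctsa on the opposite strand in the later annotation, and the sources do not give the strand setting of the counting. Ctsa, a lysosomal protease gene, was at 62.3 ± 15.6 CPM (SD, n = 3) in untreated kidney and was not called at any time, with log2 fold changes between -0.30 and 0.82.

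Pltp and Apoe had low values at day 1 and their highest means at day 7, and their upstream stretches are shown side by side. They come from build GRCm38.p6, on the minus strand, at chr2:164857709-164857958 for Pltp and chr7:19699189-19699438 for Apoe, whose farthest upstream of 3 listed starts was taken. No capitals appear because none of the 3 motifs matched.
Pltp: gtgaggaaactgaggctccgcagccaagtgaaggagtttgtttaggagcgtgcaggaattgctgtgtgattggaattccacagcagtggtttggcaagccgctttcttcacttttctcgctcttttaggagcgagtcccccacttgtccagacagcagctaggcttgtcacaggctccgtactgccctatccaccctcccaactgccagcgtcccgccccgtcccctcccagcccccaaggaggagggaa
Apoe: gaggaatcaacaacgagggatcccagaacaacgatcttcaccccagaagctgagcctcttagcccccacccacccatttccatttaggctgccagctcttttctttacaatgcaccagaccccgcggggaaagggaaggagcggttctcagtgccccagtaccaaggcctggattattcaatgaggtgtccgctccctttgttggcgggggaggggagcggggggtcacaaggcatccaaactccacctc

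Lcat and Apoc1 were close to the limit of these libraries. Lcat (ENSMUSG00000035237), the plasma enzyme that esterifies cholesterol on high-density particles, had 1, 4 and 1 reads in untreated kidney and at most 37 in any library. Its group means ran from 0.0707 ± 0.0215 CPM in untreated kidney to 0.787 ± 0.381 CPM at day 2 (SD, n = 3). Apoc1 (ENSMUSG00000040564), a small apolipoprotein that inhibits lipases and lipid transfer, had 1 to 39 reads per library and group means of 0.386 to 0.840 CPM. Neither passed the test across the 6 groups, with adjusted p values of 0.229 for Lcat and 0.927 for Apoc1 (edgeR). The log2 fold change of Lcat was 2.63 ± 1.18 (SE) at day 1 and 3.31 ± 1.21 at day 2. The adjusted p values were 0.165 and 0.0723 (edgeR), so neither passed. Every Lcat library of days 1, 2 and 3 lay above untreated kidney. DESeq2 called Lcat higher at day 2 with an adjusted p of 0.0355.

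Levels can be compared between genes only per length of transcript. Per kilobase of merged exon, Cd36 stood highest of the 10 in untreated kidney, at 66.0 CPM per kb, followed by Lpl at 21.1 and Nr1h3 at 3.29, while Apoe was at 3.09 and Plin2 at 0.974. At day 1 Plin2 stood at 50.9 CPM per kb, second to Cd36 at 70.1. At day 7 Apoe was first at 30.9 CPM per kb, ahead of Cd36 at 14.9 and Abca1 at 5.97. Pltp was 1.27 CPM per kb at day 7. The exon lengths are from the later annotation and assume that all exons of a gene are transcribed.

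Between consecutive times no member was called, where 10, 42, 3 and 3 of all genes were called (0.0594%, 0.25%, 0.0178% and 0.0178%). At an unadjusted p under 0.05 there were 2, 5, 4 and 2 members for day 2 against day 1, day 3 against day 2, day 7 against day 3 and day 14 against day 7, against 13.4%, 15.5%, 10.1% and 9.44% of all genes. DESeq2 called 1 member in the first step (Apoe), 2 in the second (Pltp and Abcg1) and 0 in the others, against 2.99%, 4.49%, 1.27% and 0.899% of the genes to which it gave an adjusted p. The largest step of a member in the edgeR fit was that of Pltp from day 2, with 1 read, to day 3, a log2 fold change of 5.43 ± 1.28 (SE) with an adjusted p of 0.0615, and it was called without day 2 replicate 2 (adjusted p of 0.0393), when no read of day 2 remained. Apoe from day 1 to day 2 came next with 2.79 ± 0.56 and an adjusted p of 0.0663, and it was 2.00 with an adjusted p of 0.159 without day 2 replicate 2. It was called without day 2 replicate 1 (adjusted p of 0.0282) or replicate 3 (0.00941).

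The macrophage markers were read beside the late members, since macrophages express Apoe, Abcg1 and Pltp. Abca1, which macrophages express too, was not a late member and was called higher from day 1 on. The 12 markers summed to 40.6 to 82.5 CPM in untreated kidney, 27.0 to 34.2 CPM at day 1, 33.4 to 38.4 CPM at day 2 and 56.3 to 84.6 CPM at day 3. The sum was 149 to 172 CPM at day 7 and 87.4 to 188 CPM at day 14. At day 7, 9 of the 12 were called higher and none lower, among them Adgre1 at 12.3 CPM against 0.895 CPM and C1qb at 17.3 against 1.78 CPM in untreated kidney. At day 1, 1 was called higher and 2 lower. In day 14 replicate 3, where Apoe, Abcg1 and Pltp were each the highest of their group, the macrophage sum was also the highest. So were the sums of tubular injury, podocyte and fibroblast markers, the last at 320 CPM against 206 and 150 CPM in replicates 1 and 2. Those of proximal tubule, loop and distal tubule, collecting duct and endothelial markers were the lowest of the group there. At most 1 of the 12 macrophage markers was without a read in any library. Mrc1, which the series title names as a result of the study, is 1 of the 12. The part of macrophage number in these levels was not tested.

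Plin2 and Apoc2 are also genes of the liver cell. The 10 hepatocyte markers summed to 40.7 to 59.3 CPM in untreated kidney and 9.29 to 19.1 CPM at day 1, and Alb was at 0 to 0.476 CPM in group mean. Of the 5 that could be tested, 2 were called higher and 1 lower at days 1 and 2, with median log2 fold changes of -0.05 and 2.21. Fibroblast markers, 8 genes, summed to 31.2 to 56.7 CPM in untreated kidney and 131 to 263 CPM at day 7, where 3 were called higher. Loop and distal tubule markers were called lower for 7 of 8 at day 1 and 1 of 8 at day 7, and collecting duct markers for 4 and 0 of 7 tested. Podocyte markers were called lower for 0 and 1 of 8 at these days. Of 9 adrenal cortex markers 2 could be tested, with 0 called at day 1 and 1 lower at day 7. The part of these cell types in the members' levels was not tested.

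**Figure D3:**
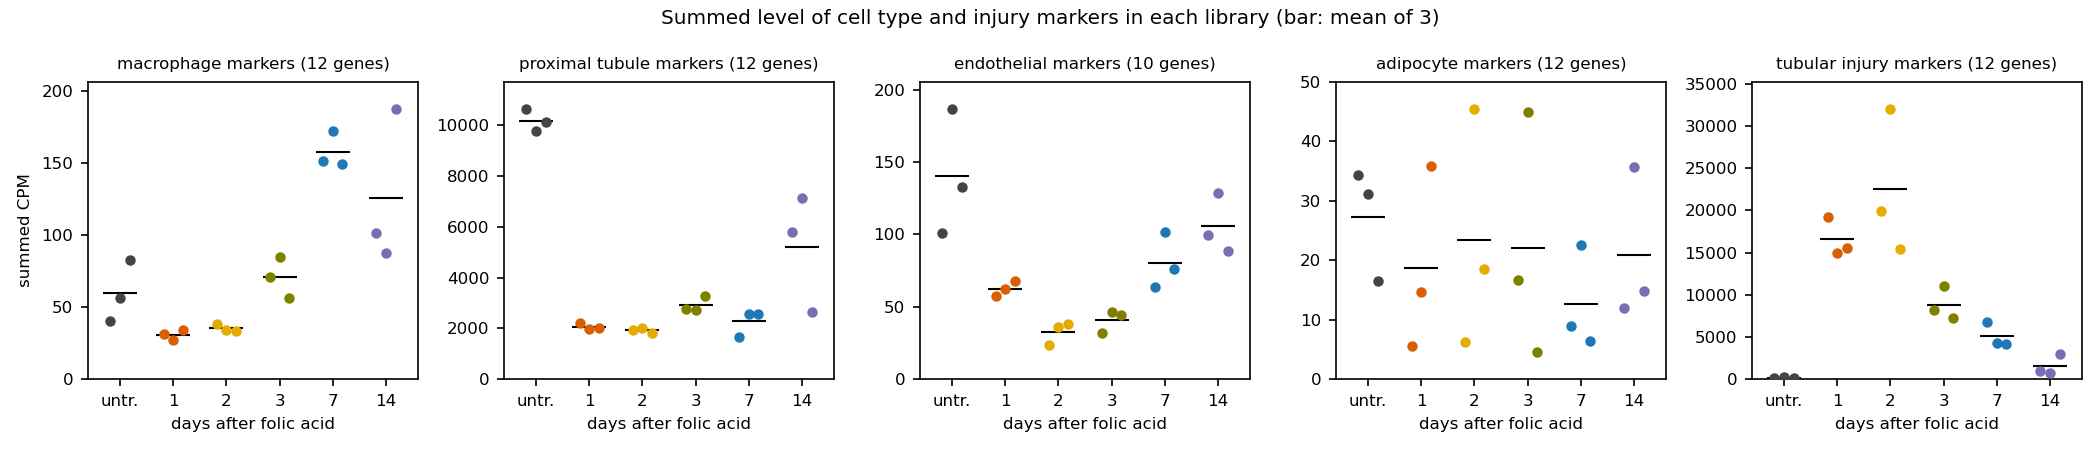
Summed level in CPM (linear axes from 0) of markers of macrophages, proximal tubule, endothelium, adipocytes and tubular injury in each library, by day after folic acid at equal steps, with bars for means of 3. The macrophage sum is highest at day 7 and in day 14 replicate 3, and the proximal tubule sum is at most 3276 CPM from day 1 to day 7.

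For each member the 3 genes with the nearest course were found as those with the smallest root mean square difference of centred log2 CPM over the 18 libraries. For Lpl these were Acadm, Acat1 and Hsd3b2, with differences of 0.33, 0.34 and 0.37 log2 units. For Plin2 they were Lrg1, Spink6 and Fga, at 0.62, 0.70 and 0.75. For Abca1 they were Psd3, Ifngr1 and Ifit2, at 0.42 to 0.47, and for Cd36 Abcg2, Fth1 and Pik3cb, at 0.44 to 0.49. Apoe lay nearest to Spon1, C1qb and Sdk1, at 0.82 to 0.89, and Abcg1 to Spon1, Mrc1 and H2-Aa, at 0.75 to 0.82. Pltp lay nearest to H2-Aa, Abca9 and Spon1, at 0.77 to 0.82. C1qb and Mrc1 are macrophage markers and H2-Aa presents antigen. Spon1, the only gene near to each of Apoe, Abcg1 and Pltp, is not among the macrophage markers used here, nor are Sdk1, Abca9 and H2-Aa. Acadm and Acat1 are mitochondrial enzymes of fatty acid oxidation and ketone metabolism. The likeness for Lcat (Rpsa, Mcm4, Piezo1), Apoc1 (Ccdc174, Isyna1, Sh3bp5) and Nr1h3 (Josd1, Eaf1, Msl1) is given by name only, since these members did not pass the test across groups. These likenesses are descriptions over libraries that share groups and depth.

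Of 28 further lipoprotein particle and lipase genes, 21 could be tested. They were called higher for 2, 3, 3, 2 and 1 genes and lower for 3, 1, 1, 2 and 0 genes at days 1, 2, 3, 7 and 14, with median log2 fold changes between -0.05 and 0.21. Over all genes tested, 5.09, 7.19, 4.18, 3.87 and 1.24% were called higher at these days. The shares called lower were 5.56, 5.98, 3.43, 3.85 and 0.309%. Apoc2, the activator of lipoprotein lipase, had no read in untreated kidney. It had 0.175, 0.0900 and 1.11 CPM at day 1 and 12.7, 12.7 and 2.00 CPM at day 2, then 1.46, 1.10 and 0.499 CPM at day 3 and 0, 0 and 0.0408 CPM at day 14. Set against a floor of 3 reads over the untreated group, it was at least 236-fold higher at day 2, with an adjusted p of 0.000971 (edgeR). Replicate 1 held 623 of the 750 reads of day 2, and without it the limit was 101-fold. Without untreated replicate 2 it was 106-fold. Its exons overlap those of a joined transcript with its neighbour in the later annotation for 79.5% of their length. Apom, the apolipoprotein that carries sphingosine-1-phosphate, was at 27.0, 27.1 and 35.8 CPM in untreated kidney and 1.94, 2.20 and 8.23 CPM at day 2. Its log2 fold change at day 2 was -2.83 ± 0.60 (SE) with an adjusted p of 0.00389 (edgeR). Lrp8, a receptor for apolipoprotein E, was 5.05-fold higher at day 1, with 9.88, 8.28 and 11.8 CPM against 1.79, 2.28 and 1.82 CPM and an adjusted p of 0.0105 (edgeR). These 3 calls held when each library was left out in turn. Apom was also called lower at days 1, 3 and 7, Lrp8 higher at day 3 and Apoc2 higher at days 1, 3 and 7, and each of these was lost when at least 1 of the 3 untreated libraries was left out.

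The remaining calls of that list depended on single libraries. Lrp1, a receptor for remnant particles, was 3.53-fold higher at day 7 and 6.15-fold higher at day 14, and both calls were lost without any 1 of the 3 untreated libraries. The day 7 call of Lrp1 was also lost without day 7 replicate 1 or 2, and its day 14 call without day 14 replicate 2 or 3. Angptl4, an inhibitor of lipoprotein lipase, was 2.49-fold higher at day 2 and 2.77-fold higher at day 3, and both calls were lost without untreated replicate 1 or 3. The day 2 call of Angptl4 was also lost without day 2 replicate 2, and its day 3 call without day 3 replicate 1 or 2. Scarb1, the receptor for high-density particles, was 5.03-fold higher at day 2, a call lost without untreated replicate 1 or 3 or day 2 replicate 1. Lipg, the endothelial lipase gene, was called lower at day 1, but 76 of its 80 untreated reads were in replicate 2, and the call was lost without it or without any 1 of the 3 day 1 libraries. Mttp, which loads lipid onto apolipoprotein B, was 6.24-fold lower at day 1, a call lost without untreated replicate 1 or any 1 of the 3 day 1 libraries. It shares 7.36% of its exon bases with Trmt10a on the other strand. Vldlr was 2.11-fold lower at day 7, a call lost without any 1 of the 6 libraries.

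Of 23 sterol efflux and LXR pathway genes, 21 could be tested, and 2, 2, 1, 2 and 1 were called higher and 1, 2, 1, 0 and 0 lower at the 5 times. The median log2 fold change lay between -0.13 and 0.04. These counts stand beside the shares of all genes given with the lipoprotein list, and no set test was run. Arl4c, a small GTPase and known LXR target, was called higher at every time. Untreated kidney had 1.74, 1.74 and 5.14 CPM and day 7 had 16.8, 13.1 and 20.5 CPM, a log2 fold change of 2.56 ± 0.47 (SE) with an adjusted p of 0.00233 (edgeR) that held when each library was left out. Its calls at the other times were each lost without untreated replicate 1 or 2, and also without replicate 1 of days 1 and 2 or replicate 3 of day 14. Scd1, the desaturase that LXR and insulin raise, was lower at days 1, 2 and 3. It fell from 47.1, 34.1 and 47.5 CPM to 9.60, 6.08 and 19.5 CPM at day 2, a log2 fold change of -1.85 ± 0.37 with an adjusted p of 0.00288 (edgeR). The Scd1 calls at days 1 and 3 were lost without untreated replicate 1 or 3 or any 1 of the treated libraries. Ch25h, which makes an oxysterol ligand of LXR, was called higher at days 1 and 7 from 5 reads in all of untreated kidney, and both calls were lost without untreated replicate 2 or 3, without any 1 of the day 1 libraries, or without day 7 replicate 1 or 3. Soat1, which esterifies cholesterol, was called higher and Mylip, which degrades the low-density lipoprotein receptor, lower at day 2. Both calls were lost without untreated replicate 1 or 2 or day 2 replicate 2. Without day 2 replicate 2, 1 gene of this list was called in each direction at that time.

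**Figure D4:**
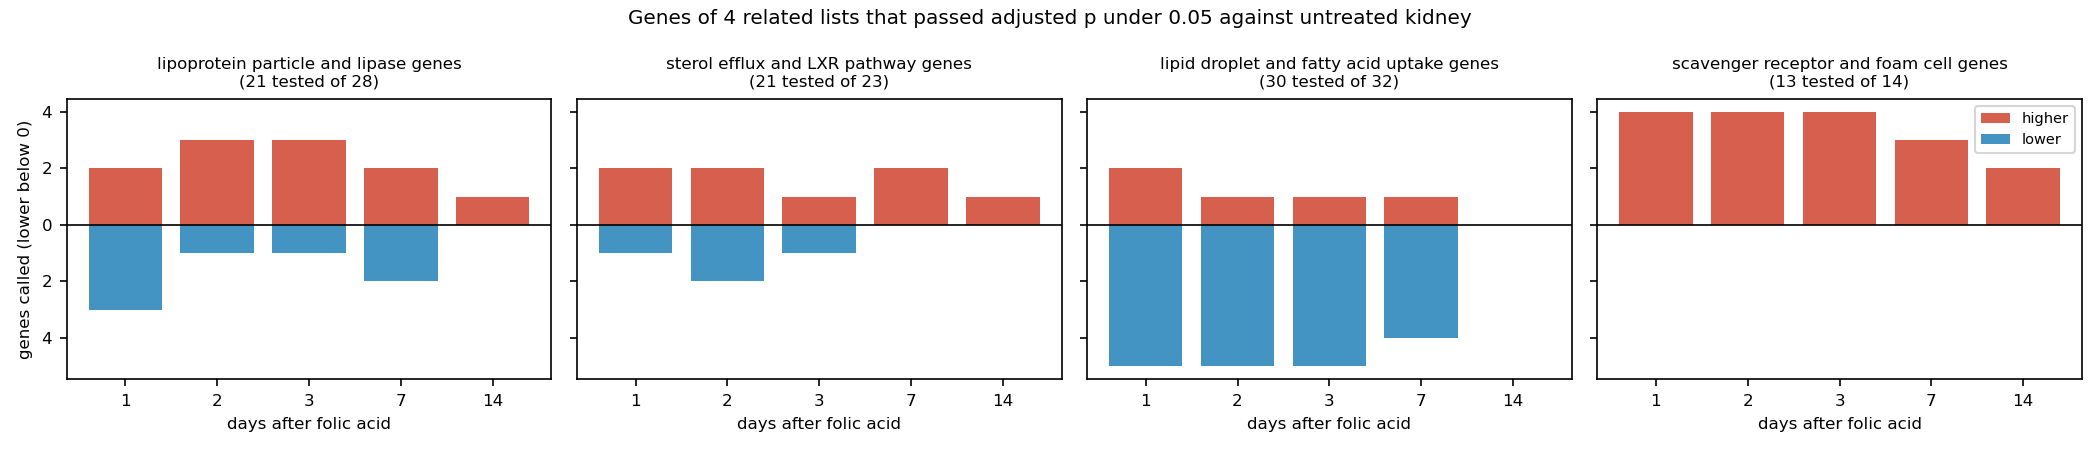
Number of genes called higher (above 0) and lower (below 0) against untreated kidney at adjusted p under 0.05 in 4 lists of related genes that exclude the 10 members, by day after folic acid at equal steps. The scavenger receptor and foam cell list has calls in 1 direction only, higher, with 4, 4, 4, 3 and 2 genes. Of all genes tested, 5.09, 7.19, 4.18, 3.87 and 1.24% were called higher at these days.

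Of 32 lipid droplet and fatty acid uptake genes, 30 could be tested, and 2, 1, 1, 1 and 0 were called higher and 5, 5, 5, 4 and 0 lower. The median log2 fold change lay between -0.53 and -0.06. The shares of all genes called are those given with the lipoprotein list. Acsl4, which activates polyunsaturated fatty acids, was called higher from day 1 to day 7. It had 39.6, 40.7 and 33.9 CPM in untreated kidney, 216, 151 and 135 CPM at day 1 and 195, 238 and 129.5 CPM at day 2, with log2 fold changes of 2.14 ± 0.30 and 2.30 ± 0.30 (SE) and adjusted p values of 0.000136 and 7.2e-05 (edgeR). Acsl1, which channels fatty acids in the tubule, went the other way, with 88.2, 108 and 81.4 CPM in untreated kidney and 12.1, 17.7 and 31.8 CPM at day 1. Its log2 fold change was -2.17 ± 0.39 with an adjusted p of 0.00129 (edgeR). Slc27a2, a fatty acid transporter that is also a proximal tubule marker here, was 3.21-fold lower at day 1 and 2.90-fold lower at day 7, with 1167 to 1615 CPM in untreated kidney. The calls of Acsl4 at days 1 and 2, of Acsl1 at day 1 and of Slc27a2 at days 1 and 7 held when each library was left out. The Acsl4 call at day 7 was lost without untreated replicate 1 or 3 or day 7 replicate 1.

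Other calls in the droplet list depended on single libraries. Plin3, a relative of Plin2, was 3.26-fold higher at day 1, a call that was lost without any 1 of the 3 untreated libraries or without day 1 replicate 2 or 3. Mgll, the monoglyceride lipase, was 3.55-fold lower at day 7, a call lost without day 7 replicate 1. Acsl3 was 3.08-fold lower at day 3, a call lost without untreated replicate 3 or day 3 replicate 1 or 2. Fitm2, which helps droplets form, was 2.90-fold lower at day 2, a call lost without untreated replicate 3 or any 1 of the 3 day 2 libraries. Ppard, a fatty acid sensor, was called lower at days 2, 3 and 7, but untreated kidney had 75.9 CPM in replicate 1 and 10.2 CPM in replicate 3, and each of these calls was lost without untreated replicate 1 and without replicate 1 or 2 of the treated time. Without day 2 replicate 2, 2 genes of this list were called lower at day 2 in place of 5.

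Of 14 scavenger receptor and foam cell genes, 13 could be tested, and 4, 4, 4, 3 and 2 were called higher and none lower. The median log2 fold change was 1.00, 0.58, 0.90, 1.19 and 1.36. For the shares of all genes called, those given with the lipoprotein list apply. Ctsd, a lysosomal protease, had 120.2, 133 and 98.2 CPM in untreated kidney and 350.3, 463 and 281 CPM at day 2, a log2 fold change of 1.64 ± 0.24 (SE) with an adjusted p of 0.000166 (edgeR). Lgals3, the galectin of activated macrophages and injured tubules, had 6.69, 3.73 and 4.20 CPM in untreated kidney and 28.0, 35.1 and 23.6 CPM at day 1. Its log2 fold change was 2.57 ± 0.42 with an adjusted p of 0.000565 (edgeR). Msr1, the macrophage scavenger receptor, was 11.3-fold higher at day 7 with an adjusted p of 0.00989, and that call was lost without untreated replicate 2 or day 7 replicate 1. Trem2, a lipid receptor of macrophages, had 2, 2 and 3 reads in untreated kidney and was 12.8-fold higher at day 7 with an adjusted p of 0.0391 (edgeR), and the call was lost without any 1 of the 6 libraries. Ctsk, a protease of macrophages and osteoclasts, was 9.01-fold higher at day 7 and 13.0-fold higher at day 14, and both calls were lost without untreated replicate 2 or 3, and without day 7 replicate 1 or day 14 replicate 3 respectively. Cxcl16, a chemokine that also binds oxidised lipoprotein, was called higher at days 2, 3 and 14, and each call was lost without untreated replicate 1 or 2 and without replicate 2 of days 2 and 3 or replicate 1 or 3 of day 14. Scarb2 was 2.60-fold higher at day 1 with an adjusted p of 0.0485 (edgeR), a call lost without any 1 of the 3 untreated libraries or day 1 replicate 2 or 3. Cxcl16 shares 18.3% of its exon bases with Zmynd15 on the other strand. Ctsd shares 34.4% of its exon bases with Gm49369 on the same strand in the later annotation. The 2 calls of this list at day 14 were both lost without day 14 replicate 3.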

How the data were processed

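Whole-kidney total RNA was amplified from 10 ng with a single-primer isothermal method and sequenced, per the labels' protocols. The deposited files give raw read counts per Ensembl gene for 18 libraries, made by the authors with cutadapt, TopHat2 2.07 and HTSeq on build NCBIM37, per the submitters' processing notes. Roles and settings of these tools, the strand setting included, are not given in the sources used here. Tallies of reads with no gene were left out of library sizes. The tally of alignments that were not unique made up 18.4 to 28.5% of all counts, genes and tallies together. Symbols and exon lengths come from GENCODE M21 on the later build GRCm38, with symbols for 32919 of 37991 identifiers, so no coordinates are given for the counted genes. Promoter stretches come from RefSeq (GRCm38.p6).

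Counts were filtered with filterByExpr, scaled by TMM and fitted in 1 quasi-likelihood model with group as the only term (edgeR 4.0.16, R 4.3.3). F-tests are two-sided, with Benjamini-Hochberg adjustment over 16824 genes at 0.05. Each SE of the edgeR fit is the size of the unshrunk log2 coefficient divided by the square root of F. The fold changes beside it are shrunken by a prior count, which matters most where reads are few. Each time was compared with untreated kidney and with the time before, and all 6 groups together. Comparisons of later with earlier treated times were added after the data were seen. The exact intervals on summed reads cover counting error only. The test was also run on simulated counts, with an outcome not reported here. Alternatives were DESeq2 1.42.0, limma-voom (limma 3.58.1), 2 other scalings, no mitochondrial genes, 2 other filters, only the groups compared, a replicate block and each library left out; where 2 libraries remained in a group, the spread was pooled over all groups.

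The 10 members and the gene lists were chosen with earlier results of these data known. Values of all 10 members are given, with fold changes of members against untreated kidney where the unadjusted p was under 0.05 or the text says so. In each further pathway list and at each time against untreated kidney, the genes named were the up to 4 called with the largest change and at least 5 CPM in 1 group, plus all those called in a direction with 3 or fewer calls. Nearest genes had at least 5 CPM on average and an SD of at least 0.5 times that of the member. Marker genes given as examples were chosen after their values were seen.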

Additional observations from a re-analysis of the deposited data

Results flagged for a closer look

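Pltp and Apoe lay on opposite sides of untreated kidney at early and late times, in every library of the groups named here, and the late times were tested against the early ones. The genes and times were picked for this pattern in the same libraries, so the adjusted p values describe it and are no independent evidence for it. Pltp was higher at day 7 than at day 1 by 6.21 ± 1.01 (SE) on the log2 scale, with an adjusted p of 0.00119 (edgeR). It was higher at day 14 than at day 1 by 5.57 ± 0.99, with an adjusted p of 0.00156 (edgeR). Against day 2, where the 3 libraries held 1 read in all, the fitted differences were 7.37 ± 1.26 at day 7 and 6.72 ± 1.27 at day 14, each with an adjusted p of 0.00190 (edgeR), and such fitted values depend on the prior count. The higher side, days 7 and 14, had not itself passed the test against untreated kidney.

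Apoe was below untreated kidney at day 1, without passing the test, and above it later. It was higher than at day 1 by 2.87 ± 0.56 at day 3, by 4.34 ± 0.59 at day 7 and by 3.69 ± 0.58 at day 14 (log2 scale, SE), with adjusted p values of 0.0172, 0.000300 and 0.000622 (edgeR). The differences of Pltp and Apoe at days 7 and 14 from day 1 were called in all 15 alternatives. That of Apoe at day 3 was lost without any 1 of the 3 day 1 libraries, with adjusted p values of up to 0.108. The macrophage marker sum was lower at day 1 than in untreated kidney and higher at day 7. Gene by gene, the 12 markers had a median log2 fold change of -0.15 at day 1, with 1 called higher and 2 lower. At day 7 the median was 3.10, with 9 called higher. The part of macrophage number in the differences of Pltp and Apoe was not tested.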

How the results depend on the processing

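Of the 21 calls of members against untreated kidney, 13 held in every alternative and with each library left out, and none of the 21 changed direction under these alternatives. Counts of called members at day 14 moved from 2 to 4 without a low-count filter, to 4 with DESeq2, to 1 with limma-voom and to 0 with only the groups compared. At day 2 the count was 3 in place of 5 with only the groups compared. Day 2 against day 1 gave 1 member without a filter and 1 with DESeq2, in place of 0. Day 3 against day 2 gave 1 with library totals, 1 without a filter, 1 with a mean of at least 1 CPM and 2 with DESeq2, in place of 0. With each library left out in turn the counts were 3 to 4 at day 1, 4 to 5 at day 2, 2 to 4 at day 3, 5 to 6 at day 7 and 0 to 2 at day 14. They were 0 to 1 for day 2 against day 1, 0 to 1 for day 3 against day 2, 0 for both later steps and 7 for any difference across groups. The cause of these shifts was not tested. The fits of only the groups compared and of libraries left out also held fewer libraries, and the part of that was not tested either.

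Over all genes, calls moved by over 1.5 times in several settings. Day 3 went from 1280 to 2238 with library totals and 2172 with DESeq2, day 7 from 1298 to 2565 and 2162, and day 2 from 2216 to 1186 with only the groups compared. Day 14 went from 260 to between 71 with only the groups compared and 914 with DESeq2. The test across groups went from 3315 to between 2101 and 5365, and the 4 steps between consecutive times to between 0 and 722. Leaving out a library gave 1164 to 1379 at day 1, in place of 1792, 1453 to 2005 at day 2, 614 to 1046 at day 3, 607 to 1014 at day 7 and 106 to 351 at day 14, and 0 to 272 for the 4 steps. Scaling by library totals raised the median log2 fold change of all genes by 0.14, 0.24, 0.58, 0.68 and 0.32 at days 1, 2, 3, 7 and 14. The share of calls that were higher went from 47.8, 54.6, 54.9, 50.2 and 80.0% to 56.8, 69.0, 91.2, 93.2 and 95.9%, and the called members kept their direction.

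Libraries with the same replicate number did not deviate together, with correlations of -0.0543 to 0.0416 over 45 pairs of libraries. With the replicate block, 4, 4, 3, 6 and 2 members were called at the 5 times, 0 between consecutive times and 7 across groups. Apoe at day 2 (adjusted p of 0.0510) and day 3 (0.0504) no longer passed, and no other call of a member against untreated kidney changed. Pltp at days 1 and 2 had at most 3 reads per library, Lcat at most 37 in any library and Apoc1 at most 39, so their values rest on few reads.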
